A study of Patiria miniata with 16 samples.

Results

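The 4 libraries described here compare whole embryos of the bat star Patiria miniata kept in BAPN until day 2 with untreated embryos of the same day. They were chosen by their labels, 4 of the 16 libraries of the series, and all genes of the deposited count table were considered. All embryos were wild type. BAPN (beta-aminopropionitrile) is a small irreversible inhibitor of lysyl oxidases, the secreted copper enzymes that cross-link collagen and elastin. The treated group holds 1 library of embryos given 1.2 mM BAPN at the hatched blastula stage and 1 given 0.8 mM at the same stage, both collected on day 2. The control group holds 1 day 2 library named as the control of each. The replicates of the treated group therefore differ in dose, and each library was made from a pool of at least 200 embryos. The labels do not say that the libraries came from separate spawnings or cultures. The p-values reflect just the spread between libraries of a group, estimated over all 16 libraries of the series. That spread may be technical, and in the treated groups it includes any effect of dose. For comparison, 3 other treatments of wild-type embryos were used, each also with 1 library at 1.2 mM and 1 at 0.8 mM: BAPN between mid gastrula and day 3 (with 2 day 3 controls), BAPN between hatched blastula and day 4 (with 2 day 4 controls), and BAPN until day 2 followed by recovery in its absence until day 4, set against the same 2 day 4 controls. No library of the day 2 comparison is used in any of the other 3.

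A sea star hatches as a hollow ciliated blastula, gastrulates by invagination of the vegetal plate, and forms a gut, mesenchyme, coelomic pouches and a larval ciliary band over the following days. The blastocoel is filled with a collagen-containing extracellular matrix and bounded by a basal lamina, and cells read this matrix through integrins, syndecans and discoidin receptors. Cells under stress from unfolded proteins, amino acid shortage or damage are known in animals to induce basic leucine zipper (bZIP) transcription factors of the ATF, C/EBP, Maf and AP-1 families, with tRNA synthetases, chaperones or lysosomal enzymes among the genes that such responses can change.

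The question asked of these libraries is which transcripts differ on day 2 when lysyl oxidase inhibition starts before gastrulation. Of 27818 genes, 17519 had enough reads to be tested and 7264 (41.5%) passed an adjusted p of 0.05 in edgeR's quasi-likelihood test, 3817 (21.8%) of them higher and 3447 (19.7%) lower in BAPN. With total counts as the only scaling, the split was 2978 higher and 4679 lower, and the median log2 change of all tested genes was -0.25, against -0.01 with the TMM scaling used here. In 7194 of the 7264 called genes both treated libraries lay outside the range of both controls, and in 7203 the 1.2 mM and the 0.8 mM library each differed from its own control in the same direction. These genes were already selected on the same values, so the counts are a description and no separate support. Changes of at least 4-fold were seen in 1307 genes that rose and 1016 that fell, and changes of at least 16-fold in 306 and 129. Of 910 tested long noncoding RNAs 120 were higher and 82 lower (22.2% called), and of the protein-coding genes 42.9% were called, shares that were not tested against each other. In these bulk samples, fewer cells of a type and less RNA per cell cannot be told apart.

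The day 2 libraries held 9945801 to 12730755 counted reads each, within the range of 9945801 to 14383817 over the series. Ribosomal RNA genes took 0.561% and 0.962% of the counts in the treated and 0.574% and 0.661% in the control libraries. The TMM factors were lower in the treated (0.922 and 0.874) than in the control libraries (1.067 and 1.068). The replicates lay close together: the Spearman correlation of log2 CPM across genes was 0.9719 between the treated and 0.9671 between the control libraries, and averaged 0.8738 between a treated library and its own control. Levels below are read counts per 1e6 reads after TMM scaling (CPM), given for the 1.2 mM library, then the 0.8 mM library, then their controls in that order. Changes are fitted log2 ratios of BAPN over control with their standard error (SE). Because 41.5% of all tested genes were called, each list is read beside the 21.8% that rose and the 19.7% that fell among all genes, and no list was tested as a set. Genes in the text were taken by a fixed rule from each list, and further members, added to fill out a list, were chosen after their values were seen. For most genes the rule required both treated libraries to lie on 1 side of both controls. Statements below that the groups did not overlap therefore restate this selection and are no separate support.

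**Figure D1:**
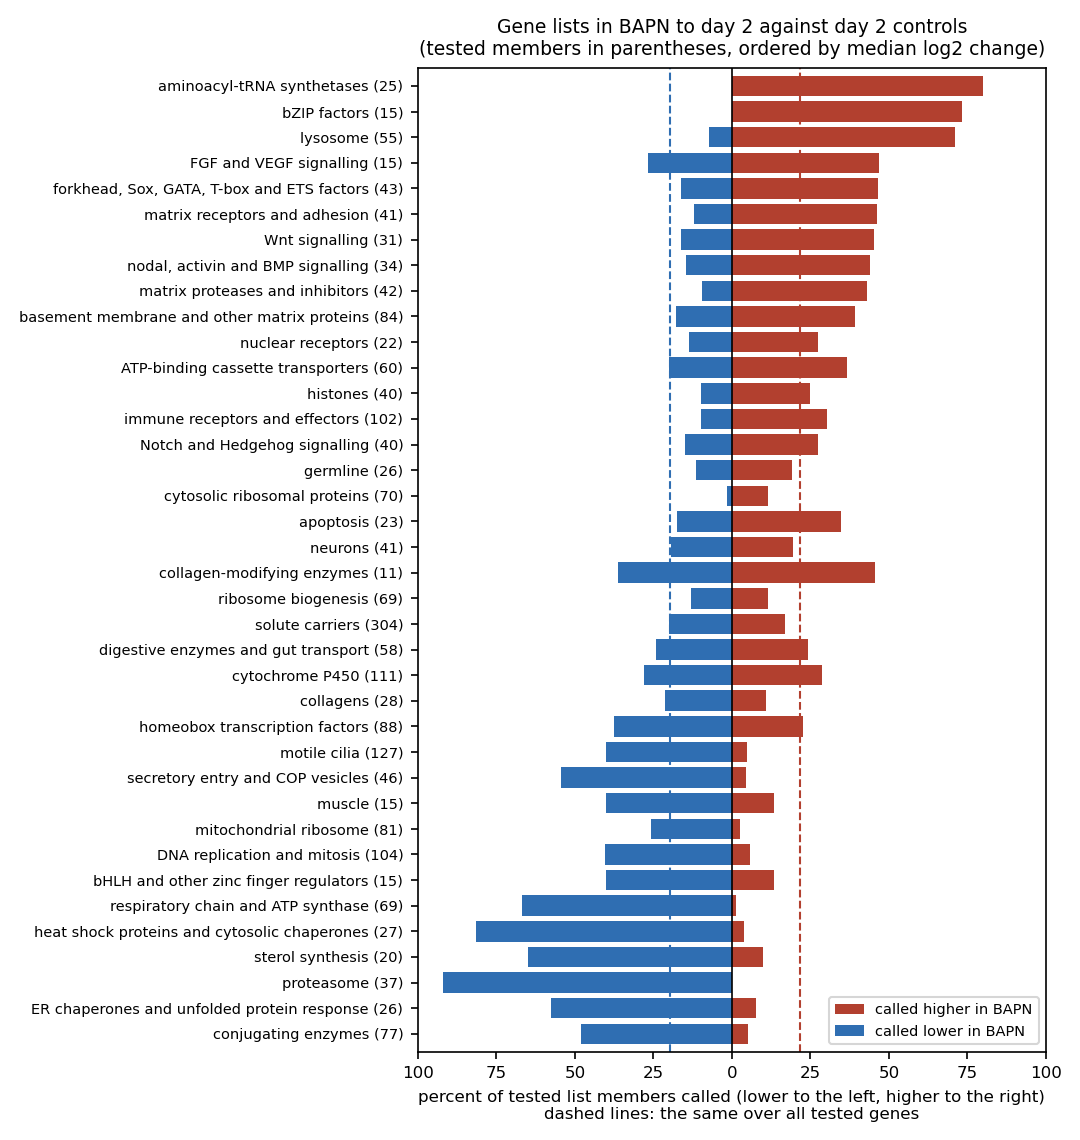
Percent of the tested members of 38 gene lists that rose (red, right) or fell (blue, left) at day 2, ordered by the list's median log2 change, with dashed lines at the 21.8% and 19.7% of all tested genes. The tRNA synthetases, bZIP factors and lysosome stand at the top, and the proteasome, heat shock proteins and conjugating enzymes near the bottom.

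The bZIP transcription factors had the highest median change of the regulator lists. Of 15 tested, 11 rose and none fell, with a median log2 change of 1.77. An ATF-3-like gene (LOC119741506), coding for a factor that in vertebrates is nearly silent in resting cells and induced by many stresses, stood at 1984 and 2198 CPM against 8.95 and 7.81 CPM. It was low in both controls and high in both treated libraries, a log2 change of 7.93 ± 0.23 (adjusted p = 2.9e-15). A C/EBP beta-like gene (LOC119736380), whose mammalian counterpart is an acute-phase and differentiation factor, stood at 3522 and 3754 CPM against 399.7 and 420.1 CPM and rose by 3.15 ± 0.14 (adjusted p = 1.5e-13). For both genes the groups were far apart and the replicates of a group close together.

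Further bZIP members that rose were a second ATF-3-like gene (LOC119741451, 4.71 ± 0.25 on the log2 scale), a pair of C/EBP gamma-like genes (LOC119736371, 2.68 ± 0.32, and LOC119736381, 2.45 ± 0.16), the Jun homologue AP-1-like (LOC119722444, 1.72 ± 0.29), a fos-related antigen 2-like gene (LOC119740819, 1.77 ± 0.51), ATF-2-like (LOC119720484, 1.84 ± 0.43), MafK-like (LOC119737441, 1.46 ± 0.22) and a CREB3-like protein 4 gene (LOC119740849, 1.48 ± 0.20). The other 4 members did not pass: 1 more ATF-3-like gene (LOC119740248, log2 change 1.58 ± 0.79, adjusted p = 0.15), the oxidative stress factor NRF2-like (LOC119744759, log2 change 0.46 ± 0.20, adjusted p = 0.078), ATF-6 beta-like (LOC119734401, log2 change 0.39 ± 0.17, adjusted p = 0.077) and CREB3-like protein 2 (LOC119722906, log2 change -0.21 ± 0.14, adjusted p = 0.22). The fos-related gene lost its call without the 0.8 mM library or without the control of the 1.2 mM library, and ATF-6 beta-like gained one without the control of the 0.8 mM library. ATF-6 and CREB3 factors are membrane-bound sensors that vertebrate cells use when proteins misfold in the secretory pathway. D site-binding protein-like (LOC119729606), a PAR-type bZIP factor not in the list, stood at 3364 and 3232 CPM against 158 and 229 CPM and rose by 4.09 ± 0.19 (adjusted p = 1.6e-12).

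**Figure D2:**
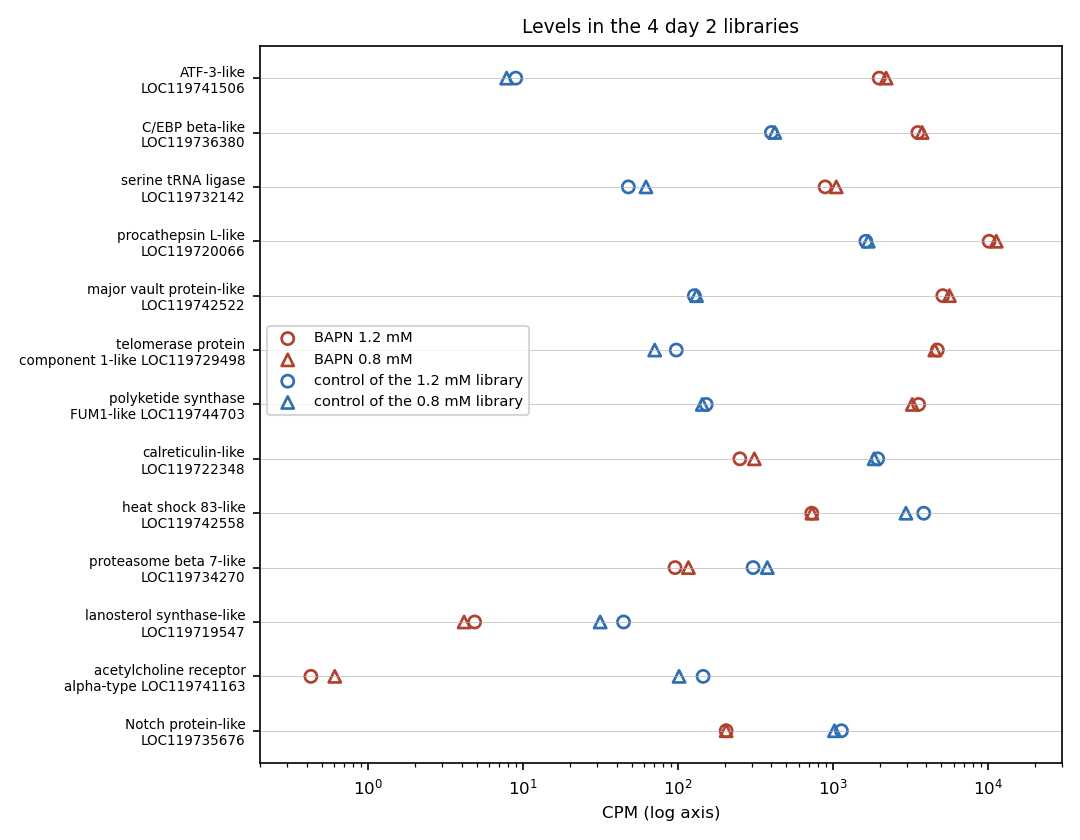
Levels of 13 genes in each of the 4 day 2 libraries, in CPM on a log axis. Red symbols are BAPN and blue symbols controls, circles the 1.2 mM library and its control, triangles the 0.8 mM library and its control. In every row the red and the blue symbols do not overlap, which the rule for naming genes required.

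The cytosolic aminoacyl-tRNA synthetases, which charge each tRNA with its amino acid, moved up together. Of 25 tested, 20 rose and none fell, with a median log2 change of 1.96. Serine tRNA ligase (LOC119732142) stood at 888 and 1048 CPM against 47.7 and 61.95 CPM, and rose by 4.14 ± 0.14 (adjusted p = 4.5e-15). A valine tRNA ligase gene (LOC119721438) stood at 779 and 874 CPM against 70.6 and 73.7 CPM and rose by 3.51 ± 0.13 (adjusted p = 1.3e-14). Methionine tRNA ligase (LOC119745730), which also charges the initiator tRNA, stood at 477 and 465 CPM against 57.05 and 46.6 CPM and rose by 3.18 ± 0.14 (adjusted p = 9.0e-14). In each of the 3 both treated libraries lay far above both controls.

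Ligases for glutamine (LOC119726461, 2.69), glutamate and proline (LOC119740495, 2.60), tryptophan (LOC119742635, 2.59), arginine (LOC119728475, 2.34), alanine (LOC119738744, 2.17) and glycine (LOC119719397, 2.10) rose by more than 2 log2 units, and those for tyrosine (LOC119730827, 1.96), lysine (LOC119719221, 1.76), leucine (LOC119727751, 1.72) and histidine (LOC119728369, 1.56) by more than 1.5. The alpha and beta subunits of phenylalanine tRNA ligase, which form 1 enzyme, rose unequally (LOC119737551, 0.98 ± 0.15, and LOC119732265, 2.38 ± 0.14), a difference that was not tested. The 5 that did not pass were the aspartate (LOC119729877, log2 change 0.08 ± 0.13, adjusted p = 0.66), threonine (LOC119745492, log2 change 0.23 ± 0.14, adjusted p = 0.21) and cysteine (LOC119726747, log2 change 0.49 ± 0.21, adjusted p = 0.066) ligases, a second alanine (LOC119722639, log2 change -0.34 ± 0.16, adjusted p = 0.089) and a valine gene (LOC119734373, log2 change 0.14 ± 0.23, adjusted p = 0.67). Of these, the cysteine gene was called without the 1.2 mM library. The alanine gene was called lower with total counts only, with DESeq2 size factors, with DESeq2 and without the control of the 0.8 mM library. The valine and asparagine ligases are each present as several similar genes, between which the authors' counting could divide reads, so their single values are uncertain. With total counts as the only scaling, 20 members rose and 1 fell. Of the 13 tested mitochondrial tRNA ligases, a group chosen after its values were seen, none rose and 1 fell, the tyrosine enzyme (LOC119734784, log2 change -0.72 ± 0.24, adjusted p = 0.019), with a median log2 change of -0.06.

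The lysosome rose in both its enzymes and its proton pump. Of 55 tested genes, 39 rose and 4 fell, with a median log2 change of 1.56. Procathepsin L-like (LOC119720066), a cysteine protease of the lysosome, stood at 10156 and 11300.0 CPM against 1626 and 1686 CPM and rose by 2.70 ± 0.12 (adjusted p = 2.6e-13). Cathepsin Z-like (LOC119739222), a lysosomal carboxypeptidase, stood at 1142 and 1247 CPM against 74.1 and 68.4 CPM and rose by 4.06 ± 0.14 (adjusted p = 4.5e-15). The gamma-interferon-inducible thiol reductase-like gene (LOC119723162), whose product in mammals opens disulfide bonds of swallowed proteins, stood at 331 and 362 CPM against 18.4 and 18.1 CPM and rose by 4.24 ± 0.15 (adjusted p = 5.7e-15). The Pro-X carboxypeptidase-like gene (LOC119727647) stood at 186 and 183 CPM against 9.45 and 9.04 CPM and rose by 4.30 ± 0.15 (adjusted p = 4.5e-15). In each of the 4 genes the treated libraries lay well above both controls.

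Other proteases and hydrolases moved the same way: cathepsin D-like (LOC119724276, 3.17 ± 0.12), a cathepsin B-like gene (LOC119724861, 3.52 ± 0.16), a lysosomal aspartic protease (LOC119728195, 4.32 ± 0.30), alpha-mannosidase (LOC119731660, 2.44 ± 0.14) and acid lipase (LOC119732124, 1.61 ± 0.13). The membrane glycoprotein LAMP1-like (LOC119723704), a main component of the lysosomal membrane, stood at 1668 and 1639 CPM against 319 and 333 CPM and rose by 2.34 ± 0.11 (adjusted p = 1.6e-13). Subunits of the V-type proton ATPase, which acidifies the lysosome, rose by 0.65 (subunit D, LOC119745629) to 2.23 (a 116 kDa subunit a1 gene, LOC119745354), with the catalytic subunit A (LOC119733234) at 1.56 ± 0.14. The G (LOC119721121, log2 change 0.27 ± 0.11, adjusted p = 0.053) and C (LOC119725649, log2 change 0.21 ± 0.20, adjusted p = 0.41) subunits did not pass. Sequestosome-1-like (LOC119727599), the p62 receptor that brings ubiquitin-tagged cargo to autophagosomes, rose by 2.06 ± 0.28 (adjusted p = 4.9e-05). The 4 members that fell were a LAMP1-like gene (LOC119741818), a LAPTM5-like gene (LOC119744465), a LAMP3-like gene (LOC119724182) and the TMEM175-like potassium channel (LOC119732439), all low in every library. For the first, the control counts were 29.8 (95% counting interval 4.97 to 1215) times the treated counts, and the second was at least 6.41-fold lower and the next at least 6.09-fold lower in BAPN, where neither had a read; the LAMP3-like gene lost its call without either treated library or without the control of the 1.2 mM library. The TMEM175-like gene stood at 4.52 and 1.62 CPM against 7.43 and 8.19 CPM and was called under 9 of 11 alternatives, but not with the 4 day 2 libraries alone or without the 0.8 mM library.

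**Figure D3:**
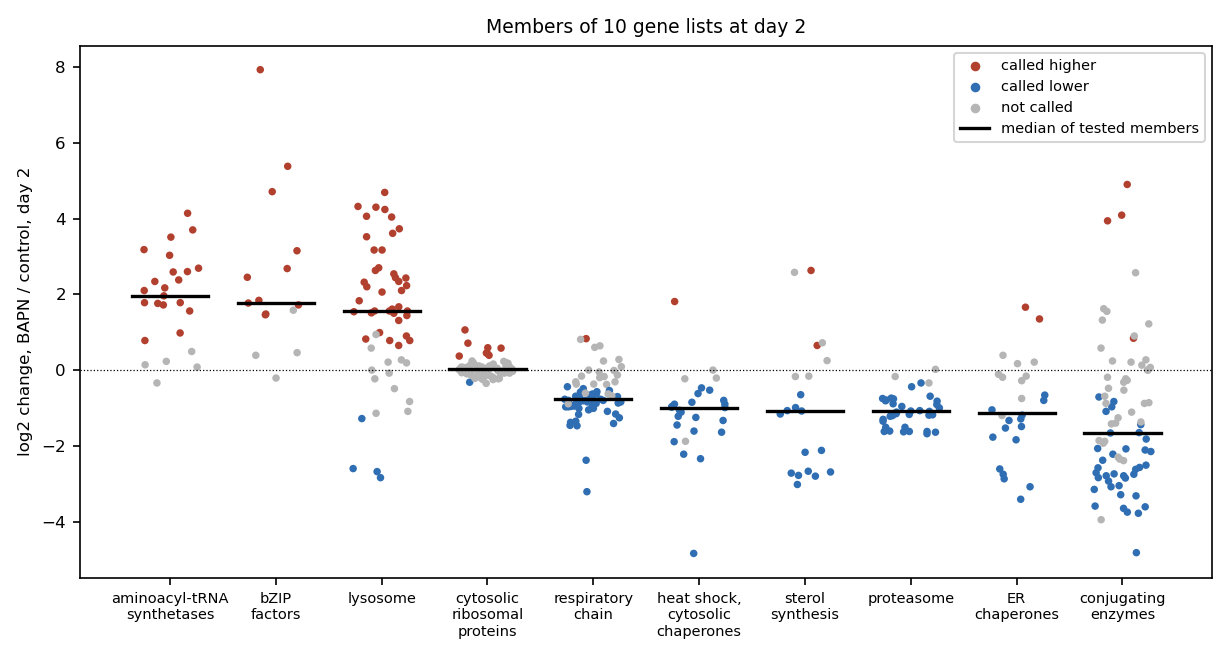
Log2 change of each tested member of 10 gene lists at day 2, with red for members that rose, blue for members that fell, grey for those not called and a black bar at the median. The tRNA synthetases, bZIP factors and lysosome lie mostly above 0, the cytosolic ribosomal proteins within 1.1 log2 units of 0, and the proteasome almost wholly below 0.

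The proteasome, the complex that degrades ubiquitin-tagged proteins, fell in nearly all of its subunits. Of 37 tested genes 34 fell and none rose, with a median log2 change of -1.09 and a lowest of -1.68. Among the catalytic beta subunits, type 7 (LOC119734270) stood at 95.4 and 116 CPM against 304 and 376 CPM and fell, with a log2 change of -1.68 ± 0.13 (adjusted p = 1.2e-09). Beta type 6 (LOC119732011) stood at 38.2 and 37.6 CPM against 109 and 107 CPM, with a log2 change of -1.51 ± 0.14 (adjusted p = 1.5e-08). Beta type 5 (LOC119737527) stood at 76.7 and 86.8 CPM against 232 and 234 CPM, with a log2 change of -1.51 ± 0.13 (adjusted p = 4.5e-09). In all 3 both controls lay well above both treated libraries. The 3 genes that did not pass were a pair of non-ATPase regulatory subunit 10 genes (LOC119734899, log2 change -0.34 ± 0.28, adjusted p = 0.35, and LOC119719114, log2 change -0.17 ± 0.43, adjusted p = 0.79) and subunit 9 (LOC119735697, log2 change 0.02 ± 0.31, adjusted p = 0.99), which are assembly chaperones of the regulatory particle in yeast and mammals rather than parts of the finished complex. With total counts as the only scaling 34 likewise fell and none rose.

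Chaperones of the cytosol fell as well. Of 27 genes, 22 fell and 1 rose, with a median log2 change of -0.99. Heat shock protein 83-like (LOC119742558), the HSP90 homologue, stood at 728 and 730.3 CPM against 3844 and 2950.0 CPM, with a log2 change of -2.22 ± 0.23 (adjusted p = 1.8e-06). Heat shock cognate 71-like (LOC119729619), the constitutive HSP70, stood at 613 and 696 CPM against 2581 and 2264 CPM, with a log2 change of -1.89 ± 0.16 (adjusted p = 7.1e-09). For both genes the treated libraries were close together and far below the controls. The ring chaperone TCP-1, which folds actin and tubulin, fell in all 8 of its listed subunits, from -1.61 (alpha, LOC119724654) to -0.47 (epsilon, LOC119729594, which lost its call without the 1.2 mM library or its control). A gene for each of these clients fell too, and the other actin and tubulin genes are not counted here. Whether these falls were linked to that of the chaperone was not tested. A beta tubulin gene (LOC119744442) stood at 319 and 435 CPM against 1815 and 2118 CPM (log2 change -2.38 ± 0.14, adjusted p = 1.6e-11). Cytoplasmic actin (LOC119719186) stood at 1196 and 1412 CPM against 3569 and 3402 CPM (log2 change -1.42 ± 0.13, adjusted p = 7.9e-09). HSP70 protein 13-like (LOC119728643), a microsomal member, was the exception and rose by 1.81 ± 0.23 (adjusted p = 1.8e-06).

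Chaperones of the endoplasmic reticulum had the second-lowest median of the 38 lists. Of 26 genes, 15 fell and 2 rose, with a median log2 change of -1.12. Calreticulin-like (LOC119722348), a lectin chaperone that holds calcium, stood at 250.0 and 310.1 CPM against 1939.6 and 1839 CPM, with a log2 change of -2.75 ± 0.16 (adjusted p = 7.8e-12). Endoplasmin-like (LOC119726490), the HSP90 of this compartment, stood at 59.98 and 92.8 CPM against 873 and 756 CPM, with a log2 change of -3.41 ± 0.25 (adjusted p = 2.3e-08). Disulfide isomerase A4 (LOC119745254) stood at 34.6 and 47.4 CPM against 301 and 299 CPM, with a log2 change of -2.87 ± 0.20 (adjusted p = 6.5e-10). The sensor IRE1-like (LOC119738610), which splices the XBP1 message when this compartment is stressed, moved the other way, at 92.9 and 107 CPM against 28.8 and 34.3 CPM (log2 change 1.66 ± 0.17, adjusted p = 4.6e-08). The other member called higher, a sel-1 homolog 3 gene (LOC119735202, log2 change 1.35 ± 0.49, adjusted p = 0.033), kept its call under 5 of 11 alternatives and lost it when any 1 of the 4 libraries was left out. Genes of entry into the secretory route and of COP vesicles fell in 25 and rose in 2 of 46, with a median of -0.44; Sec61 beta (LOC119722856), part of the translocation channel, stood at 100.020 and 113 CPM against 245 and 262 CPM (log2 change -1.25 ± 0.13, adjusted p = 7.0e-08).

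Cytosolic ribosomal proteins had small changes. Of 70 genes, 8 rose and 1 fell, with a median of 0.03 and a range from -0.35 to 1.06, but with total counts as the only scaling 2 rose and 17 fell with a median of -0.22. Without the 0.8 mM library 3 rose, and without the control of the 1.2 mM library 2. The largest change was in ribosomal protein S27-like (LOC119729697), at 1868 and 1785 CPM against 806 and 943 CPM (log2 change 1.06 ± 0.16, adjusted p = 1.0e-05). Ribosome biogenesis genes were mixed, with 8 higher and 9 lower of 69 (4 and 19 with total counts only; 5 higher without the 0.8 mM library). The rRNA methyltransferase fibrillarin-like (LOC119733178) stood at 292 and 364 CPM against 604 and 649.8 CPM (log2 change -0.93 ± 0.13, adjusted p = 4.0e-06). The nucleolar phosphoprotein NOLC1-like (LOC119732046) stood at 289.6 and 351 CPM against 183 and 169 CPM (log2 change 0.87 ± 0.14, adjusted p = 2.3e-05). A gene named for the translation factor eIF5A-1 (LOC119746463) was nearly absent from controls, at 600.4 and 458 CPM against 0.928 and 0.0942 CPM, and rose by 9.57 ± 0.39 (adjusted p = 2.1e-11). Elongation factor 1-alpha (LOC119724749) stood at 18789 and 20144 CPM against 10587 and 11285 CPM (log2 change 0.83 ± 0.12, adjusted p = 7.6e-06).

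Subunits of the respiratory chain and ATP synthase, which make most of a cell's ATP, fell in 46 and rose in 1 of 69, with a median of -0.77. Cytochrome b-c1 subunit 2 (LOC119737812) stood at 119.5 and 145 CPM against 309 and 327 CPM (log2 change -1.26 ± 0.12, adjusted p = 1.9e-08). Cytochrome c oxidase subunit 6B1 (LOC119722318) stood at 27.01 and 34.2 CPM against 80.4 and 88.2 CPM (log2 change -1.46 ± 0.17, adjusted p = 2.6e-07). ATP synthase subunit d (LOC119734437) stood at 135 and 145 CPM against 283 and 314 CPM (log2 change -1.09 ± 0.12, adjusted p = 3.1e-07). In these examples from 3 complexes both treated libraries lay below both controls. The 1 that rose, a succinate dehydrogenase cytochrome subunit (LOC119732959, log2 change 0.83 ± 0.32, adjusted p = 0.04), kept its call under 4 of 11 alternatives, losing it among others without the 0.8 mM library or without the control of that library. Mitochondrial ribosomal proteins fell in 21 and rose in 2 of 81, with a median of -0.47. With total counts only, 40 fell and none rose (median -0.72), and without the 1.2 mM library 13 fell.

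Genes of sterol synthesis, the pathway from acetyl units to cholesterol and related sterols, fell at most steps. Of 20, 13 fell and 2 rose, with a median of -1.07. Lanosterol synthase-like (LOC119719547), which closes the sterol rings, stood at 4.86 and 4.15 CPM against 44.4 and 31.4 CPM, with a log2 change of -3.02 ± 0.28 (adjusted p = 1.8e-08). Lanosterol 14-alpha demethylase-like (LOC119719259), the next enzyme, stood at 9.71 and 16.4 CPM against 97.9 and 84.8 CPM, with a log2 change of -2.80 ± 0.22 (adjusted p = 1.1e-09). A lathosterol oxidase-like gene (LOC119735716) stood at 19.9 and 22.9 CPM against 154 and 141 CPM, with a log2 change of -2.78 ± 0.15 (adjusted p = 3.1e-12), while a second one (LOC119739422) rose from a low level, at 42.7 and 38.5 CPM against 4.30 and 8.57 CPM (log2 change 2.63 ± 0.31, adjusted p = 5.3e-07). In the first 3 both controls lay far above both treated libraries. Of the earlier steps, farnesyl pyrophosphate synthase (LOC119725361) changed by -2.12 ± 0.23, squalene synthase (LOC119724910) by -1.08 ± 0.15 and HMG-CoA synthase (LOC119728172) by -0.65 ± 0.16, all called lower, the last not without the 1.2 mM library or without its control. HMG-CoA reductase (LOC119740885), the rate-limiting enzyme, stood at 100.9 and 121 CPM against 129 and 120.0 CPM and did not pass (log2 change -0.17 ± 0.14, adjusted p = 0.36). The regulator SREBP1-like (LOC119727598), called higher at 198 and 166 CPM against 128 and 104 CPM (log2 change 0.65 ± 0.18, adjusted p = 0.0072), lost the call with total counts only, without the 1.2 mM library and without the control of the 0.8 mM library.

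Enzymes and pumps that handle small foreign molecules split by type. The conjugating enzymes (sulfotransferases, glucuronosyltransferases and glutathione transferases) fell in 37 and rose in 4 of 77, with a median of -1.65, the lowest of the 38 lists. A glucuronosyltransferase 2C1-like gene (LOC119731706) stood at 4.94 and 8.81 CPM against 96.1 and 90.95 CPM (log2 change -3.75 ± 0.20, adjusted p = 2.3e-12). Glutathione transferase theta-like (LOC119732217) stood at 9.29 and 11.2 CPM against 128 and 126 CPM (log2 change -3.61 ± 0.17, adjusted p = 5.4e-13). A sulfotransferase 1A1-like gene (LOC119730908) went the other way, at 116 and 151.1 CPM against 2.62 and 6.12 CPM (log2 change 4.90 ± 0.24, adjusted p = 1.7e-12). In each of these 3 the groups were far apart, with no overlap.

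Of 111 cytochromes P450, 32 (28.8%) were higher and 31 (27.9%) lower, beside 21.8% and 19.7% of all tested genes. A 3A24-like gene (LOC119737035) stood at 284 and 303 CPM against 3.29 and 4.90 CPM (log2 change 6.12 ± 0.19, adjusted p = 1.4e-15). A 2J5-like gene (LOC119728973) stood at 2.81 and 4.35 CPM against 60.3 and 74.2 CPM (log2 change -4.18 ± 0.27, adjusted p = 3.8e-11). Among 4 neighbouring 2J genes that all fell, with log2 changes of -3.60 to -2.66, LOC119730932 had no read in the treated libraries and few in the controls (at least 6.41-fold lower), and lost its call without either treated library and without the control of the 0.8 mM library. The ABC transporters, which pump drugs and conjugates out of cells, rose in 22 and fell in 12 of 60 (7 lower without the 1.2 mM library). ABCB1-like (LOC119723012), the P-glycoprotein homologue, stood at 4091 and 4394 CPM against 421 and 392 CPM (log2 change 3.38 ± 0.12, adjusted p = 6.5e-15). An MRP4-like gene (LOC119734515) stood at 769 and 754 CPM against 31.9 and 45.1 CPM (log2 change 4.30 ± 0.16, adjusted p = 1.4e-14). Several of these families hold near-identical copies, so the values of single copies are uncertain.

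Genes named for 2 proteins of the vault, a large cytoplasmic ribonucleoprotein particle of uncertain function, were among the 10 named genes with the largest gain in CPM. Major vault protein-like (LOC119742522) stood at 5102 and 5628 CPM against 127 and 131 CPM and rose by 5.37 ± 0.15 (adjusted p = 2.7e-16). Telomerase protein component 1-like (LOC119729498), whose mammalian counterpart is part of both the vault and telomerase, stood at 4704 and 4532 CPM against 97.2 and 70.5 CPM and rose by 5.78 ± 0.17 (adjusted p = 8.3e-16). For each the controls were low but detected and both treated libraries were far higher. Other genes with this latter name, chosen after their values were seen, did not move alike: LOC119746507 rose by 1.15 ± 0.14 and LOC119746108 fell, with -2.58 ± 0.52. A pair of polyketide synthase-like genes, whose relatives build pigments and toxins in many organisms, also rose. The FUM1-like gene (LOC119744703) stood at 3563 and 3242 CPM against 152 and 143 CPM (log2 change 4.53 ± 0.16, adjusted p = 4.7e-15). The ZEA2-like gene (LOC119746280) stood at 1290.2 and 1031 CPM against 17.4 and 9.13 CPM (log2 change 6.43 ± 0.39, adjusted p = 1.1e-07).

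Among transcription factors of other families, genes moved both ways. Of 88 homeobox genes 20 rose and 33 fell (median -0.36), and of 43 forkhead, Sox, GATA, T-box and ETS genes 20 rose and 7 fell (median 0.74). An HB1-like homeobox gene (LOC119746085) stood at 0.852 and 0.405 CPM against 32.6 and 32.4 CPM (log2 change -5.33 ± 0.41, adjusted p = 6.6e-10). The neural factor unc-4 homologue (LOC119721322) stood at 0 and 1.01 CPM against 21.9 and 26.4 CPM (log2 change -5.25 ± 0.51, adjusted p = 4.8e-08). Hmx-like (LOC119740024), a sensory and neural factor in vertebrates, stood at 6.13 and 6.17 CPM against 50.9 and 56.8 CPM (log2 change -3.09 ± 0.22, adjusted p = 1.6e-10). All 3 fell, with both treated libraries below both controls. A vent1-like gene (LOC119739858), a BMP-responsive ventral factor in frogs, rose instead, at 355 and 338 CPM against 68.8 and 61.01 CPM (log2 change 2.41 ± 0.17, adjusted p = 2.7e-10).

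Among the other families, forkhead B1-like (LOC119741688) stood at 0.0852 and 0.506 CPM against 24.98 and 29.6 CPM (log2 change -5.94 ± 0.85, adjusted p = 1.4e-04). TBX2-like (LOC119730635) stood at 4.69 and 1.11 CPM against 87.9 and 72.7 CPM (log2 change -4.67 ± 0.35, adjusted p = 1.0e-08). Hand2-like (LOC119727609), a mesodermal basic helix-loop-helix factor, stood at 1.36 and 0.304 CPM against 39.7 and 32.9 CPM (log2 change -5.14 ± 0.47, adjusted p = 6.7e-08). These 3 were close to absent in both treated libraries and present in both controls. T-box protein 1 (LOC119724510) stood at 594 and 601 CPM against 96.5 and 112 CPM (log2 change 2.51 ± 0.18, adjusted p = 7.7e-10). Sox-14-like (LOC119723841) stood at 477 and 504 CPM against 184 and 159 CPM (log2 change 1.51 ± 0.13, adjusted p = 3.9e-09). Both rose, with no overlap of the groups.

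**Figure D4:**
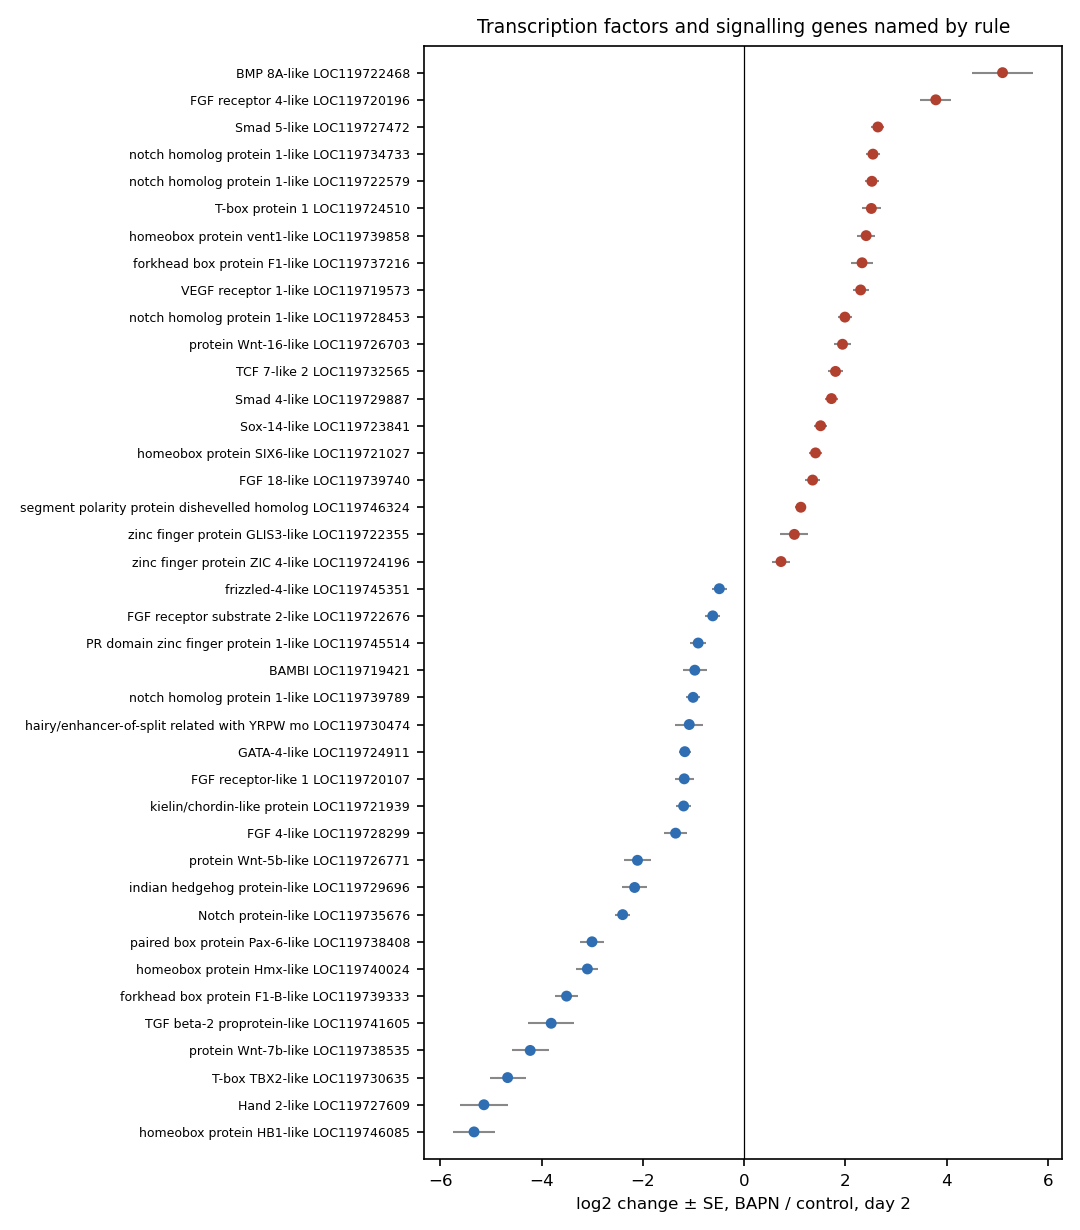
Log2 change ± SE at day 2 of the called transcription factors and signalling genes that the naming rule took from 7 lists, leaving out those with no read in a whole group. Points to the right of 0 (red) rose and points to the left (blue) fell; the range runs from -5.33 (HB1-like) to 5.11 (BMP 8A-like).

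The single markers of the germ layers given here did not move as a block. Several markers listed for checking, among them eomesodermin, Pax-6, SOX-2 and FoxQ2, are not given. In the endoderm, FoxA2-like (LOC119740965) stood at 839 and 750.2 CPM against 987 and 1077 CPM (log2 change -0.38 ± 0.12, adjusted p = 0.014). GATA-4-like (LOC119724911) stood at 162 and 160.4 CPM against 371 and 355 CPM (log2 change -1.17 ± 0.12, adjusted p = 5.5e-08). Both fell, while the brachyury homologue (LOC119745670), at 129 and 106 CPM against 83.5 and 123 CPM, did not pass (log2 change 0.20 ± 0.16, adjusted p = 0.36). FoxA2-like lost its call without the 0.8 mM library or its control, and brachyury gained one without that control. In the mesoderm, an Ets1-like gene (LOC119741492) stood at 405 and 388 CPM against 49.8 and 59.98 CPM (log2 change 2.85 ± 0.16, adjusted p = 3.9e-12). Another Ets1-like gene (LOC119735414, 1.37 ± 0.15) and a pair of Erg genes (LOC119735154, 2.07 ± 0.29, and LOC119735630, 1.40 ± 0.15) also rose. Ets and Erg factors specify mesenchyme in echinoderm embryos. Other mesodermal factors were added here to the listed markers after their values were seen. A twist-related gene (LOC119719797, -2.17 ± 0.78), a forkhead F1-B-like gene (LOC119739333, -3.51 ± 0.22) and the Hand2-like gene given above fell. A forkhead F1-like gene (LOC119737216, 2.33 ± 0.22) rose. The twist-related gene, at 1.53 and 0 CPM against 4.39 and 3.95 CPM, lost its call without the 0.8 mM library and without either control. In the ectoderm, OTX-like (LOC119721166) stood at 1787 and 1707 CPM against 1669 and 1696 CPM and did not pass (log2 change 0.05 ± 0.11, adjusted p = 0.74), nor did the cilia factor FoxJ1-like (LOC119734799, log2 change 0.65 ± 0.31, adjusted p = 0.11), which was called without the 1.2 mM library and without the control of the 0.8 mM library. The ciliary band factor HNF6-like (LOC119726019) fell, at 41.4 and 21.1 CPM against 100.1 and 66.7 CPM (log2 change -1.41 ± 0.24, adjusted p = 1.6e-04). For each germ layer at least 1 of these factors had reads in all 4 libraries. Whether the layers themselves had formed in the treated embryos was not tested.

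In the Wnt pathway, which patterns the vegetal pole of echinoderm embryos through beta-catenin, 14 of 31 genes rose and 5 fell (median 0.60; 3 lower without the 0.8 mM library). Among the ligands, Wnt-8b-like (LOC119730682) stood at 780.2 and 659 CPM against 86.5 and 133 CPM (log2 change 2.71 ± 0.23, adjusted p = 1.4e-07). Wnt-16-like (LOC119726703) stood at 154 and 179 CPM against 35.4 and 51.03 CPM (log2 change 1.94 ± 0.16, adjusted p = 3.3e-09). Wnt-5b-like (LOC119726771), a ligand of the beta-catenin-independent branch, stood at 7.84 and 7.69 CPM against 34.5 and 33.4 CPM (log2 change -2.11 ± 0.26, adjusted p = 1.8e-06). Those for Wnt-3 (LOC119741509, 0.87 ± 0.16), Wnt-1 (LOC119721263, 1.04 ± 0.22) and Wnt-11b (LOC119724240, 0.90 ± 0.20) rose, and those for Wnt-7c (LOC119744251, -3.15 ± 0.53) and Wnt-6 (LOC119721262, -1.63 ± 0.51) fell, so the ligands split; Wnt-6 lost its call without the 0.8 mM library. Inside the cell, beta-catenin (LOC119741863) stood at 2995 and 3211 CPM against 1471 and 1539.9 CPM (log2 change 1.04 ± 0.11, adjusted p = 6.0e-08). Dishevelled (LOC119746324) stood at 578 and 612 CPM against 281 and 266 CPM (log2 change 1.12 ± 0.11, adjusted p = 3.7e-08). The nuclear partner TCF7L2 (LOC119732565) stood at 203 and 203 CPM against 65.1 and 50.5 CPM (log2 change 1.81 ± 0.15, adjusted p = 2.1e-09). The 3 transducers were each higher in both treated libraries than in both controls. The 3 axin-like genes, scaffolds of beta-catenin degradation, did not pass (LOC119734540, LOC119734224 and LOC119734233), with log2 changes of 0.06, 0.09 and 0.15.

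In the TGF-beta superfamily, whose nodal and BMP arms set left-right and dorsal-ventral axes, 15 of 34 genes rose and 5 fell (median 0.52; 3 lower without the 0.8 mM library). A transducer of the BMP arm and the partner shared by both arms rose. Smad5-like (LOC119727472), of the BMP arm, stood at 681 and 681 CPM against 112 and 106 CPM (log2 change 2.64 ± 0.13, adjusted p = 5.2e-13). The shared partner Smad4-like (LOC119729887) stood at 282 and 262 CPM against 89.5 and 74.6 CPM (log2 change 1.73 ± 0.12, adjusted p = 2.4e-10). Among the ligands, a BMP 8A-like gene (LOC119722468) stood at 17.1 and 30.3 CPM against 1.01 and 0 CPM (log2 change 5.11 ± 0.60, adjusted p = 9.7e-07). A TGF-beta-2-like gene (LOC119741605) stood at 1.70 and 2.43 CPM against 21.01 and 40.9 CPM (log2 change -3.81 ± 0.45, adjusted p = 1.9e-06). The axis ligand nodal (LOC119731756) stood at 237 and 153 CPM against 176 and 176 CPM and did not pass (log2 change 0.15 ± 0.20, adjusted p = 0.59). Nor did its inhibitor lefty (LOC119746331, log2 change 0.55 ± 0.27, adjusted p = 0.11) or the BMP inhibitor chordin (LOC119731780, log2 change 0.55 ± 0.32, adjusted p = 0.21).

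Growth factor signalling by FGF and VEGF had 7 higher and 4 lower of 15 genes. A VEGF receptor 1-like gene (LOC119719573), which in sea urchins guides skeletal mesenchyme, stood at 126 and 115 CPM against 22.95 and 25.8 CPM (log2 change 2.30 ± 0.16, adjusted p = 1.1e-10). An FGF receptor 4-like gene (LOC119720196) stood at 62.02 and 80.1 CPM against 3.46 and 6.59 CPM (log2 change 3.79 ± 0.31, adjusted p = 2.4e-09). Notch and Hedgehog genes rose in 11 and fell in 6 of 40, with a median of 0.24 that became -0.02 with total counts only. Of the 3 genes named as the Notch protein, LOC119735676 stood at 204 and 204 CPM against 1131 and 1020.0 CPM (log2 change -2.40 ± 0.14, adjusted p = 1.6e-11), while LOC119734198 (log2 change -0.40 ± 0.20, adjusted p = 0.13) and LOC119736034 (log2 change -0.58 ± 0.92, adjusted p = 0.65) did not pass. Indian hedgehog-like (LOC119729696) stood at 8.86 and 6.78 CPM against 35.6 and 35.8 CPM (log2 change -2.16 ± 0.24, adjusted p = 2.3e-07). The groups did not overlap for LOC119735676 or the hedgehog gene, and both fell. Of the 21 genes named notch homolog 1, a name that also falls on other proteins with many EGF repeats, 8 rose and 3 fell. Those that rose with the smallest p had log2 changes of 1.99 (LOC119728453), 2.52 (LOC119722579) and 2.55 (LOC119734733). Those that fell had -1.15 (LOC119742566), -1.01 (LOC119739789) and -2.56 (LOC119722840, with no read in either treated library and at least 5.77-fold lower there).

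Matrix genes moved in both directions. Of 41 matrix receptors and adhesion genes 19 rose and 5 fell, and of 84 basement membrane and other matrix genes 33 rose and 15 fell. The collagen-binding kinase DDR2-like (LOC119734382) stood at 510.1 and 483 CPM against 70.3 and 65.8 CPM (log2 change 2.86 ± 0.14, adjusted p = 6.7e-13). The heparan sulfate carrier syndecan-3-like (LOC119724564) stood at 1410.0 and 1469 CPM against 438 and 428 CPM (log2 change 1.73 ± 0.11, adjusted p = 3.0e-11). Inside the cell, vinculin-like (LOC119725907), which links adhesions to actin, stood at 16.2 and 17.01 CPM against 62.02 and 69.1 CPM (log2 change -1.97 ± 0.14, adjusted p = 2.3e-10). Fibrillin-2-like (LOC119745555), a microfibril protein, stood at 845 and 814 CPM against 159 and 152 CPM (log2 change 2.41 ± 0.12, adjusted p = 7.6e-13). Aggrecan-like (LOC119734170), a large proteoglycan, stood at 308 and 316 CPM against 1797 and 1877 CPM (log2 change -2.56 ± 0.19, adjusted p = 1.4e-09). Of the 22 genes named for fibrillin, 11 rose, 3 fell, among them another fibrillin-2-like gene (LOC119744245) with a log2 change of -5.05 ± 0.39, and 8 did not pass. Of 13 integrin genes, the main receptors for matrix, 5 rose, 1 fell (alpha-9-like LOC119723007, -0.66 ± 0.25, called under 6 of 11 alternatives and not without either treated library or the control of the 1.2 mM library) and 7 did not pass. The number of receptor and adhesion genes that fell was 3 without the 0.8 mM library or without the control of the 1.2 mM library.

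Only 28 of 106 genes with a collagen name had enough reads to be tested, and 3 of them rose and 6 fell (3 and 8 with total counts only; 3 lower without the control of the 0.8 mM library). The 3 that rose were all named alpha-1(I). The collagen IV pair of the basement membrane did not pass, LOC119724226 at 371 and 393 CPM against 429 and 433 CPM (log2 change -0.17 ± 0.14, adjusted p = 0.34) and LOC119724229 at 733 and 760.0 CPM against 649.5 and 715 CPM (log2 change 0.13 ± 0.13, adjusted p = 0.47). The fibrillar type I-like genes differed among themselves: LOC119741733 stood at 13.7 and 12.7 CPM against 1.35 and 0 CPM (log2 change 3.95 ± 0.55, adjusted p = 5.8e-06) and LOC119722725 at 28.4 and 26.6 CPM against 74.8 and 56.96 CPM (log2 change -1.26 ± 0.17, adjusted p = 4.6e-06). Among modifying enzymes, a prolyl 4-hydroxylase 10 gene (LOC119737609) stood at 78.9 and 76.7 CPM against 5.91 and 5.27 CPM (log2 change 3.76 ± 0.32, adjusted p = 1.8e-07). The alpha-1 subunit gene (LOC119731136), the classic collagen hydroxylase, stood at 25.05 and 14.98 CPM against 38.8 and 37.9 CPM (log2 change -0.93 ± 0.23, adjusted p = 0.003), and was not called without the 0.8 mM library. Of the lysyl oxidase genes, the targets of BAPN, LOC119735518 stood at 5.20 and 5.06 CPM against 14.9 and 16.3 CPM (log2 change -1.57 ± 0.49, adjusted p = 0.014), losing the call without either treated library, and LOC119738367 at 3.49 and 0.101 CPM against 5.91 and 2.45 CPM (log2 change -1.13 ± 0.90, adjusted p = 0.34), called only without the 1.2 mM library.

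Matrix proteases rose in 18 and fell in 4 of 42. An MMP-17-like gene (LOC119728352), a membrane-anchored metalloproteinase, stood at 115 and 135 CPM against 7.34 and 5.18 CPM (log2 change 4.28 ± 0.23, adjusted p = 4.5e-12). An MMP-18-like gene (LOC119727619) stood at 57.6 and 59.02 CPM against 2.28 and 1.32 CPM (log2 change 4.88 ± 0.31, adjusted p = 3.8e-11). A type IV collagenase-like gene (LOC119720279), named after the basement membrane collagen it cleaves in mammals, stood at 21.2 and 20.1 CPM against 84.3 and 97.8 CPM (log2 change -2.13 ± 0.17, adjusted p = 2.1e-09). The first 2 were thus low in controls and raised with BAPN, and the last showed the reverse order.

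Of 26 germline genes 5 rose (19.2%) and 3 fell (11.5%), beside 21.8% and 19.7% of all tested genes. Their median of 0.11 became -0.14 with total counts only. The translational regulator bicaudal C-like (LOC119729938) stood at 487 and 441 CPM against 96.6 and 74.9 CPM (log2 change 2.43 ± 0.15, adjusted p = 1.9e-11). A piwi-like gene (LOC119730361), whose product binds small RNAs against transposons, fell, at 191 and 207 CPM against 342 and 308 CPM (log2 change -0.71 ± 0.12, adjusted p = 4.8e-05). Of the nanos 3-like genes, which code for RNA-binding regulators of germ cells, LOC119721081 rose, at 28.9 and 27.7 CPM against 6.41 and 7.63 CPM (log2 change 1.99 ± 0.37, adjusted p = 1.6e-04), and LOC119721088, at 2.73 and 4.05 CPM against 0.169 and 1.69 CPM, did not pass (log2 change 1.70 ± 1.31, adjusted p = 0.32). A pair of genes for DDX4, the vasa helicase of germ cells, also rose (LOC119728304, 0.78 ± 0.16, and LOC119742591, 0.93 ± 0.19).

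Lists that stand for tissues differed. Of 127 tested genes of motile cilia (138 in the table) 51 were lower and 6 higher (median -0.43). With total counts only, 76 were lower and 3 higher (median -0.68). Their summed level was 8071 and 8630.0 CPM in the treated and 10480.0 and 10020.0 CPM in the control libraries. The axonemal assembly factor DNAAF4-like (LOC119744836), which rose, stood at 129 and 144 CPM against 12.8 and 8.76 CPM (log2 change 3.63 ± 0.26, adjusted p = 1.2e-09). Radial spoke head 9 (LOC119742585), which fell, stood at 41.8 and 51.6 CPM against 145 and 143 CPM (log2 change -1.62 ± 0.18, adjusted p = 2.2e-07). Muscle genes, 15 tested of 17, fell in 6 and rose in 2 of 15, with a summed level of 1393 and 1494 CPM in the treated and 2359 and 2287 CPM in the control libraries; troponin T-like (LOC119721886), of the contractile filament, stood at 3.07 and 1.92 CPM against 16.3 and 29.2 CPM (log2 change -3.09 ± 0.36, adjusted p = 8.2e-07). Of 41 tested neuron genes (50 in the table) 8 were higher and 8 lower. That is 19.5% each, near the 21.8% and 19.7% of all tested genes. Their summed level was 1312 and 1337 CPM in the treated and 1242 and 1217 CPM in the control libraries. The vesicular amine transporter-like gene (LOC119739950) stood at 1.02 and 0 CPM against 25.9 and 14.1 CPM (log2 change -4.83 ± 0.46, adjusted p = 6.3e-08). A vesicular glutamate transporter-like gene (LOC119726821) stood at 18.5 and 24.8 CPM against 1.01 and 1.32 CPM (log2 change 4.04 ± 0.33, adjusted p = 2.3e-09). The alpha-type acetylcholine receptor unc-38-like (LOC119741163) was close to lost, at 0.426 and 0.607 CPM against 145 and 101.3 CPM (log2 change -7.51 ± 0.28, adjusted p = 3.1e-14).

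Of 58 tested digestive genes (73 in the table) 14 were higher and 14 lower, with a median of -0.09. That is 24.1% each, near the 21.8% and 19.7% of all tested genes. Their summed level was 11860.0 and 12780.0 CPM in the treated and 4742 and 4746 CPM in the control libraries. Sucrase-isomaltase-like (LOC119723475) stood at 1.87 and 0.810 CPM against 37.9 and 23.4 CPM (log2 change -4.32 ± 0.26, adjusted p = 1.7e-11). The endoderm genes named LVN1.2, of which near-identical copies exist, moved both ways, for example LOC119738332 at 2086 and 1992 CPM against 12.5 and 19.02 CPM (log2 change 7.01 ± 0.29, adjusted p = 3.1e-11) and LOC119730502 at 8.09 and 5.97 CPM against 71.8 and 53.01 CPM (log2 change -3.11 ± 0.22, adjusted p = 1.6e-10). Immune genes rose in 31 and fell in 10 of the 102 tested of 340, with a summed level of 4251 and 4094 CPM in the treated and 2448 and 2272 CPM in the control libraries. With total counts only 28 rose and 17 fell, and the median went from 0.25 to 0.02. The pore-forming macrophage-expressed gene 1-like (LOC119725736) stood at 308 and 289 CPM against 5.06 and 3.30 CPM (log2 change 6.09 ± 0.28, adjusted p = 1.6e-11). A cytokine gene named for macrophage migration inhibitory factor (LOC119730519) stood at 304 and 302 CPM against 4.81 and 3.39 CPM (log2 change 6.14 ± 0.24, adjusted p = 1.3e-13). Both were nearly silent in controls. Of the tested members, 3 cilia, 3 muscle, 7 neuron, 16 digestive and 8 immune genes had no read in either treated library, and 3, 2, 6, 13 and 8 had none in either control. The part of these tissues in the changes above was not tested.

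Among genes of DNA replication and mitosis, 42 fell and 6 rose of 104 (median -0.48). The helicase subunit MCM5-like (LOC119741031) stood at 8.86 and 6.68 CPM against 56.3 and 60.8 CPM (log2 change -2.88 ± 0.20, adjusted p = 1.2e-10). Thymidylate synthase-like (LOC119724700) stood at 14.6 and 10.9 CPM against 127 and 109 CPM (log2 change -3.19 ± 0.21, adjusted p = 5.0e-11), while geminin-like (LOC119728448), an inhibitor of replication licensing, rose, at 137 and 128 CPM against 46.1 and 28.7 CPM (log2 change 1.82 ± 0.20, adjusted p = 1.9e-07). Apoptosis genes rose in 8 and fell in 4 of 23, with a median of 0.00 that became -0.24 with total counts only. The survival gene bcl-2-like 1 (LOC119742144) stood at 195 and 193 CPM against 32.5 and 22.9 CPM (log2 change 2.80 ± 0.16, adjusted p = 5.7e-12). A caspase-3-like gene (LOC119720432), of the executioner type, stood at 8.78 and 7.90 CPM against 38.7 and 34.7 CPM (log2 change -2.12 ± 0.32, adjusted p = 1.2e-05). Of the 10 caspase genes 2 rose, 3 fell and 5 did not pass. A caspase-7-like gene (LOC119735747), also of the executioner type, rose, at 34.2 and 31.3 CPM against 0 and 0 CPM, at least 246-fold higher. Caspases thus moved in both directions, as all tested genes did (21.8% higher and 19.7% lower). Histone genes rose in 10 and fell in 4 of 40 (6 higher without the control of the 0.8 mM library), nuclear receptors in 6 and 3 of 22, basic helix-loop-helix and other zinc finger regulators in 2 and 6 of 15, solute carriers in 51 and 61 of 304 and collagen-modifying enzymes in 5 and 4 of 11.

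Several of the largest changes lay outside these lists. A beta-1,3-glucan-binding protein-like gene (LOC119722448), of a family that recognises fungal cell walls in invertebrates, stood at 149 and 160.1 CPM against 0.506 and 0 CPM (log2 change 8.48 ± 0.47, adjusted p = 1.1e-10). A putative NADPH glutamate synthase (LOC119722078), an enzyme of nitrogen assimilation, had 0 and 1 reads against 474 and 396, where the control counts were 837 (95% counting interval 149.8 to 33090.0) times the treated counts. A phospholipase A2-like gene (LOC119723130), named after a sea star venom enzyme, stood at 0.341 and 0.202 CPM against 34.9 and 38.1 CPM (log2 change -6.37 ± 0.39, adjusted p = 4.7e-11). Uracil-DNA glycosylase-like (LOC119739758), which removes uracil from DNA, stood at 0.426 and 0.506 CPM against 29.8 and 28.6 CPM (log2 change -5.54 ± 0.43, adjusted p = 3.3e-09). These genes were close to absent in both libraries of 1 group and clearly read in both of the other. A melatonin receptor 1B-like gene (LOC119745407) and a polysialyltransferase-like gene (LOC119745946), which builds polysialic acid chains, had no read in either control and were at least 216-fold and at least 236-fold higher with BAPN, taking 3 counts over the control group as the floor.

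Genes of the same name that stand next to each other on a scaffold moved together in 3 runs of 4. The 4 potassium channel subfamily K genes, for background potassium channels, had log2 changes of -4.35 to -2.30, the 4 alpha-N-acetylgalactosaminidase genes rose by 0.83 to 1.70, and the 4 P450 2J genes fell as given above. Neighbouring copies can share reads, so these are not 4 separate observations each. The alpha-N-acetylgalactosaminidase gene LOC119727733 was called under 8 of 11 alternatives.

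In the other treatments BAPN started later, lasted longer or was withdrawn, and the embryos were also collected at day 3 or day 4. Start, duration and withdrawal therefore cannot be told apart from the age of the embryos in these contrasts. The change at day 2 differed from that of BAPN from mid gastrula to day 3 in 1228 genes (7.01%), from that of BAPN kept until day 4 in 4815 (27.5%) and from that of recovered embryos in 6159 (35.2%), by contrasts of the same edgeR fit. With total counts as the only scaling, 2468 changes were higher and 4213 lower at day 2 than after recovery, against 3239 and 2920 with TMM. Of the 3817 genes that rose at day 2, 2462 (64.5%) also rose in the day 3 comparison, which is 82.3% of its 2992. In the day 4 comparison 2484 (65.1%) also rose, 58.1% of its 4275, and in recovered embryos 289 (7.57%), 22.7% of its 1274, while 706 were lower there. Of the 3447 that fell, 1832 (53.1%) also fell at day 3, 69.4% of its 2641. At day 4 it was 2189 (63.5%), 45.8% of 4779, and in recovered embryos 339 (9.83%), 22.4% of 1515, with 490 higher. The recovered embryos and the day 4 treatment share their controls and are not set against each other here.

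Of all 17519 tested genes, 2992 were higher and 2641 lower at day 3, and 4275 and 4779 at day 4. After recovery these counts were 1274 and 1515. The day 2 change lay above that of day 3 in 636 genes and below it in 592. Against day 4 these counts were 2692 and 2123, and against recovery 3239 and 2920. Among the lists, the tRNA synthetases rose in 23 of 25 at day 3, in 23 at day 4 and in 8 after recovery. Their day 2 change was higher than the recovery change in 19. Lysosomal genes rose in 38 of 55 at day 3, in 38 at day 4 and in 1 after recovery, where 12 fell; the day 2 change was higher than the recovery change in 41. The bZIP factors had 11 of 15 higher at day 3, 13 at day 4 and none after recovery, where 5 were lower. The proteasome fell in 27 of 37 at day 3 and rose in 32 after recovery. At day 4, 10 of its genes were higher and 9 lower, near the shares among all tested genes. Its day 2 change lay below the day 4 change in 32 genes and below the recovery change in 34. Ribosome biogenesis genes, with 8 higher and 9 lower at day 2, rose in 24 of 69 at day 3, 59 at day 4 and 45 after recovery. Sterol genes had 5 lower of 20 at day 3 against 13 at day 2, and the difference itself passed in 11. Conjugating enzymes were lower than at day 3 in 17 of 77 by the same test.

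**Figure D5:**
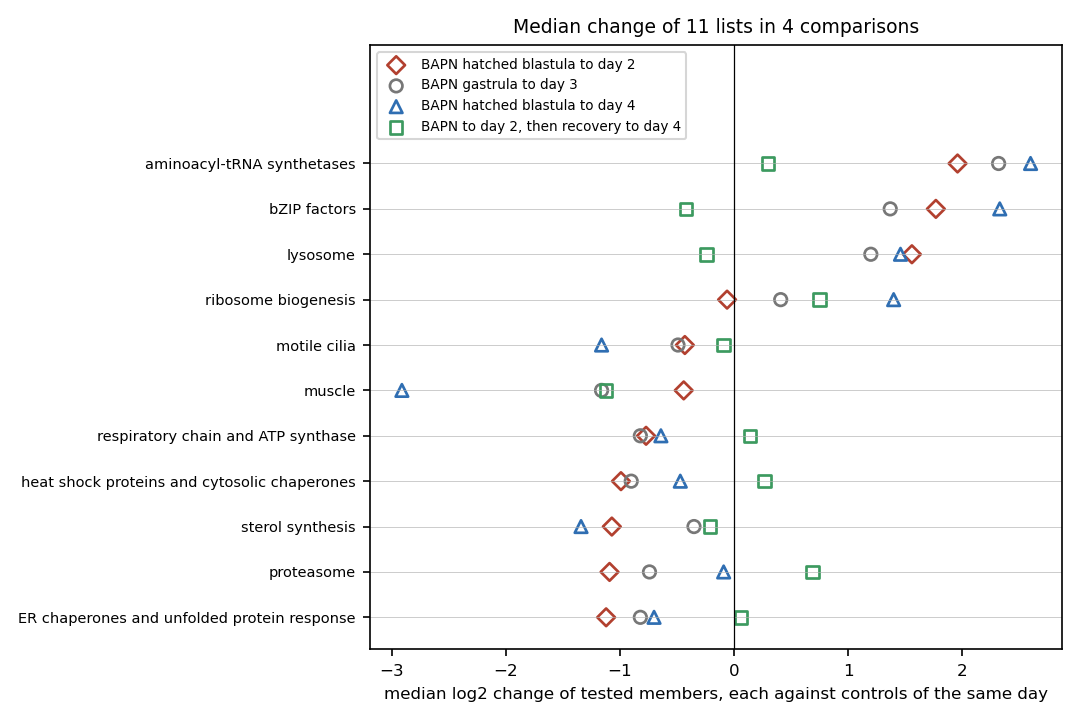
Median log2 change of the tested members of 11 lists at day 2 (red diamonds), day 3 (grey circles), day 4 (blue triangles) and after recovery (green squares), each against the controls of its day. The synthetase, bZIP and lysosome medians are between 1.20 and 2.60 in the 3 treated comparisons and between -0.42 and 0.30 after recovery; the proteasome median runs from -1.09 at day 2 to 0.69 after recovery.

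The course of single genes over the 4 comparisons differed. The MRP4-like pump LOC119734515 had a log2 change of 4.30 at day 2, 3.23 at day 3, 0.49 at day 4 and -3.37 after recovery. Its day 2 change exceeded that of day 4 by 3.81 (adjusted p = 4.8e-11). The endoderm factor GATA-4-like (LOC119724911) fell at day 2 (-1.17) but had 0.08 at day 3 and 0.39 at day 4, a difference from day 3 of -1.25 (adjusted p = 5.8e-05). The ATF-3-like gene LOC119741506 had 7.93, 6.59 and 6.72 at days 2, 3 and 4 and -0.28 after recovery.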

How the data were processed

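PolyA RNA from pools of whole wild-type embryos was sequenced paired-end and stranded, per the labels' protocols. For 16 libraries and 27818 genes the authors deposited read counts without normalization. Which aligner, counter, strand setting and genome build they used is not stated in the labels or the table, so overlapping or antisense genes are uncertain. Gene names came from the deposited table, whose gene positions match the RefSeq table of the Pmin_3.0 assembly throughout.

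Each library was placed in its group by its label, 2 per group in 8 groups. Genes passing edgeR's expression filter (minimum count 10, minimum total 15; 17519 genes) were fitted with all 16 libraries (R 4.3.3, edgeR 4.0.16, limma 3.58.1), TMM scaling, 1 term per group and 8 residual degrees of freedom. The quasi-likelihood test compared BAPN with control at day 2, and this change with those at day 3, at day 4 and after recovery. P-values were adjusted by Benjamini-Hochberg over all tested genes, with a threshold of 0.05. CPM use TMM-scaled library sizes, fitted log2 changes use a prior count of 2, and SE is the log2 change divided by the square root of its F statistic. The steps were also tested on simulated data.

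Counts of a gene that had no read in a group were set to a floor of 3 over that group for lower bounds on folds, and counting intervals are exact at 95%; both cover counting error only. Between replicates, the chi-square per degree of freedom over genes was 5.252 to 24.64, so no 2 libraries were alike within sampling noise.

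Lists were assembled by words in the product names. The members and lists were chosen with earlier results of these data known, and a few members were removed on their names after values had been seen (non-lysosomal and apoptosis-named genes from the lysosome, C/EBP zeta from the bZIP factors, interleukin enhancer-binding factors from the immune list, and a serine carboxypeptidase from the nuclear receptors). Named genes were called, had a mean log2 CPM of at least 1, had a product name and had both treated libraries on 1 side of both controls. Genes named for a difference between treatments needed a call in that difference rather than at day 2. Runs of neighbouring copies were not filtered on level or on the side of the controls. They were the 15 largest rises and falls in log2, the 10 largest in CPM, up to 3 per list and direction by p, the 5 largest differences from each other treatment in each direction, and runs of at least 4 neighbouring copies; lysyl oxidase, nanos and some other genes were named whether called or not. Markers of germ layers and tissues were listed separately. Genes named beyond this rule were chosen after their values were seen, and some genes that the counts of lists include are not reported here.

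Alternatives were total counts as the only scaling, DESeq2 size factors, DESeq2 1.42.0, no filter, and at least 50 counts over the day 2 libraries. Further ones were the 4 day 2 libraries alone, a replicate block of the named pairs in 12 libraries, and each day 2 library left out. In the pairs that the labels name, the deviations from the group means correlated across genes with r of 0.013 at day 2, -0.007 at day 3 and 0.023 at day 4, so the pairs were not used as a block in the results above.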

Additional observations from a re-analysis of the deposited data

Results flagged for a closer look

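For 30 differences between treatments, the 5 largest in each direction per comparison among genes with a product name, the change at day 2 differed from that of another treatment by a contrast of the edgeR fit (adjusted p under 0.05). Each value below is the day 2 log2 change minus the other one. Where a group had no reads, the fitted value depends on the prior count.

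Against BAPN kept until day 4, the day 2 change was higher by 9.95 in a macrophage migration inhibitory factor-like gene (LOC119730543), by 9.72 in the polyketide synthase ZEA2-like (LOC119746280), by 9.14 in a kainate receptor-like gene (LOC119730480), by 8.23 in a fibrillin-1-like gene (LOC119728181) and by 7.66 in a second migration inhibitory factor-like gene (LOC119730519). For the ZEA2-like gene the change was 6.43 at day 2 and -3.29 at day 4. The difference was -6.24 for an ATF-3-like gene (LOC119740248), -5.88 for a zinc finger gene (LOC119735654), -5.72 for prophet of Pit-1-like (LOC119738526), -4.59 for the unc-4 homologue (LOC119721322) and -4.46 for the TGF-beta-2-like gene (LOC119741605). The kainate receptor-like gene was called at day 2 under 9 of 11 alternatives, and the ATF-3-like gene was not called at day 2.

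Against BAPN from mid gastrula to day 3, the difference was 5.65 for the migration inhibitory factor-like gene LOC119730543, 5.36 for engrailed-1a-like (LOC119718926), 5.04 for the polysialyltransferase-like gene (LOC119745946), 4.87 for the beta-1,3-glucan-binding protein-like gene (LOC119722448) and 4.65 for a muscle actin gene (LOC119720708), which was called lower at day 2 under 7 of 11 alternatives. It was -5.65 for forkhead B1-like (LOC119741688), -5.25 for the same zinc finger gene (LOC119735654), -4.95 for the phospholipase A2-like gene (LOC119723130), -4.66 for the defense protein Hdd11-like (LOC119738446) and -4.18 for a potassium channel K7-like gene (LOC119742407).

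Against recovered embryos, the difference was 15.17 and 14.21 for the migration inhibitory factor-like genes LOC119730543 and LOC119730519, 13.45 for caspase-7-like (LOC119735747), 13.33 for the melatonin receptor 1B-like gene (LOC119745407) and 12.82 for ZEA2-like (LOC119746280). It was -7.9 for an organic cation transporter-like gene (LOC119723331), -7.67 for the putative glutamate synthase (LOC119722078), -6.58 for PERCC1-like (LOC119734555), -6.42 for uracil-DNA glycosylase-like (LOC119739758) and -6.35 for forkhead B1-like (LOC119741688).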

How the results depend on the processing

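Over 11 alternatives, the number of genes called higher at day 2 ran from 2978 (total counts as the only scaling) to 3887 (no filter), and the number called lower from 2573 (the 4 day 2 libraries alone) to 4679 (total counts). Of the 7264 calls, 5565 with the 4 libraries alone to 7079 with DESeq2 were also called in the same direction. Leaving out 1 library at a time gave 3177 to 3640 higher and 2799 to 3015 lower, and for the differences 2230 to 2789 higher and 1910 to 2091 lower against day 4, 444 to 881 and 443 to 642 against day 3, and 2900 to 3346 and 2667 to 2869 against recovery; with 1 library left in a group, its spread is assumed to be that of the other groups. Of 2935 values of named genes under the alternatives, 2852 kept their direction and side of the threshold, 79 lost the call, 4 gained it and 0 changed direction. Most named genes were selected on these same values, so their stability is a description and no separate support. Of the counts per list, 767 stayed within 1.5 times and 69 did not. The median log2 change of all genes ran from -0.25 (total counts) to 0.03.

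With the replicate block of the named pairs, only the 12 libraries in such pairs were fitted, and the filter was applied anew. Then 3185 genes were higher and 3419 lower at day 2. The number higher than at day 3 was 387, against 636 with all 16 libraries and no block. The block and the smaller set of libraries were not separated, and the cause was not tested. The differences were not computed with the 4 day 2 libraries alone, nor the recovery difference under the block. The replicates of the treated group differ in dose, so dose and replicate cannot be told apart. Low genes limit the precision: 347 called genes had no read in either control and 309 none in either treated library.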

Other observations

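The genes below were chosen after their values were seen, and no set of them was tested. Enzymes of serine synthesis fell. Of the genes for phosphoglycerate dehydrogenase, the first enzyme of the pathway, LOC119728916 stood at 1.45 and 2.63 CPM against 79.1 and 84.4 CPM (log2 change -5.24 ± 0.26, adjusted p = 6.8e-13) and LOC119719486 at 1.11 and 3.34 CPM against 55.02 and 50.7 CPM (log2 change -4.51 ± 0.30, adjusted p = 8.8e-11). Phosphoserine aminotransferase (LOC119718782) changed by -1.97 ± 0.41 (adjusted p = 0.0031) and phosphoserine phosphatase (LOC119743091) by -1.26 ± 0.17 (adjusted p = 2.6e-06). The enzymes that pass the carbon of serine to folate moved apart, the mitochondrial serine hydroxymethyltransferase (LOC119718781, 271 and 379 CPM against 36.5 and 45.1 CPM) rising by 2.99 ± 0.16 (adjusted p = 1.8e-12) and the cytosolic one (LOC119735109, 25.6 and 28.95 CPM against 89.03 and 59.4 CPM) changing by -1.44 ± 0.17 (adjusted p = 7.2e-07). Asparagine synthetase (LOC119719489) stood at 588 and 725 CPM against 268 and 267 CPM and rose by 1.29 ± 0.13 (adjusted p = 4.3e-08).

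The pseudokinase tribbles 2-like (LOC119724425) stood at 1829 and 2253 CPM against 203 and 202 CPM (log2 change 3.33 ± 0.13, adjusted p = 1.9e-14). GADD45 beta-like (LOC119737828), of the growth arrest family, stood at 91.5 and 79.7 CPM against 9.96 and 10.5 CPM (log2 change 3.04 ± 0.18, adjusted p = 9.6e-12). Sestrin-1-like (LOC119729986), of a family that restrains growth signalling in mammals, stood at 355 and 524 CPM against 77.05 and 90.8 CPM (log2 change 2.39 ± 0.16, adjusted p = 7.9e-11). DNA damage-inducible transcript 4-like (LOC119732126) stood at 239.7 and 301 CPM against 83.9 and 73.9 CPM (log2 change 1.77 ± 0.15, adjusted p = 3.1e-09). Soma ferritin-like (LOC119726597), an iron store, stood at 7026 and 8159 CPM against 2753 and 3094 CPM (log2 change 1.38 ± 0.13, adjusted p = 2.6e-08).

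Among genes named for further vault proteins, a second major vault protein-like gene (LOC119720528) rose by 1.97 ± 0.14 (adjusted p = 3.0e-10), and of the genes named for PARP4, the vault ADP-ribosyltransferase, LOC119730290 rose by 1.98 ± 0.17 (adjusted p = 2.9e-09) while LOC119729586 changed by -1.50 ± 0.23 (adjusted p = 2.2e-05). Another polyketide synthase-like gene, azaB-like (LOC119738044), stood at 27.5 and 22.98 CPM against 0.844 and 1.32 CPM and rose by 4.36 ± 0.47 (adjusted p = 5.5e-06).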
